A study of Sus scrofa with 8 samples.

Results

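The spermatogonia and stem cell genes UCHL1, KIT, KITLG, POU5F1 and NANOG were examined in the testes of 8 Large White boars. Probes were taken when their accession belongs to one of these genes in the pig RefSeq gene table, or when the study's own gene list names them so. This gave 4 of the 5 genes, with 5 of the 43603 probes on the array that are not controls, and the study's list named none of these probes. UCHL1, KITLG and POU5F1 have 1 probe each and KIT has 2, each printed as a single spot. No probe carried a NANOG accession of the table, so NANOG was not analysed here. On the supplemented diet were 4 boars (m_9499, m_9527, m_9597 and m_9599), and this diet had additional methionine, choline, betaine, folate and vitamins B6 and B12. The other 4 boars (m_9502, m_9528, m_9598 and m_9600) received the standard diet without the added amounts, here called the control diet. Both diets were fed from 1 to 10 months of age, until slaughter. Boars are named by the end of their sample title, and each is 1 animal on 1 one-colour Agilent array. The comparison asks whether the diet changed gene expression in the testis and so could touch spermatogenesis.

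Spermatogonia are the germ cells at the base of the seminiferous tubule from which all later germ cells arise. UCHL1 codes for a deubiquitinating enzyme that removes ubiquitin from small adducts, and in the pig testis its protein is used as a marker of gonocytes and spermatogonia. KIT is the receptor tyrosine kinase that appears on spermatogonia as they begin to differentiate, and Leydig cells and mast cells carry it too. KITLG, stem cell factor, is its ligand and is made by Sertoli cells. POU5F1 (OCT4) and NANOG are transcription factors of pluripotent cells and of early germ cells. Whole testis RNA was measured, in which fewer cells of a type and less RNA per cell cannot be told apart.

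The median spot signal of the 8 arrays lay between 108 and 192.5, which was 4.91 to 7.40 times the median local background, and no spot was saturated. A litter of 4 full brothers, m_9597 to m_9600, was included, and their arrays shared slide 1, while the other 4 boars shared slide 2. This litter and the slide therefore cannot be told apart, although each slide held 2 boars of each diet. On both slides the supplemented boars had the places 1 and 3 and the control boars the places 2 and 4, and this position on the slide is confounded with the diet. The tissue label was checked with genes of known testis cell types. PRM1, PRM2 and ACR of spermatids, PGK2 of spermatocytes, INSL3 of Leydig cells and AMH, FSHR and SOX9 of Sertoli cells were each well above background on all 8 arrays. Of 24 genes listed for spermatogonial stem cells only 4 had a named probe, and GFRA1, ZBTB16, SALL4 and LIN28A, which define these cells best, were not among them. The germ cell genes DAZL, DDX4 and STRA8 had no named probe either. The sequences of the probes were not used here, and cross-hybridization with related transcripts was not checked.

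A probe was called present on an array if its linear signal exceeded 25 and the scanner flag for a signal well above background was set, and present in the testis if the arrays of 2 or more of the 4 boars on either diet met this. All 5 probes passed this filter, as did 36982 of all probes. UCHL1, both KIT probes and POU5F1 were well above background in each of the 8 boars. KITLG was so in 2 of 4 supplemented boars (m_9597 and m_9527) and in 1 of 4 control boars (m_9598), and it passed the filter only through the supplemented diet.

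**Figure D1:**
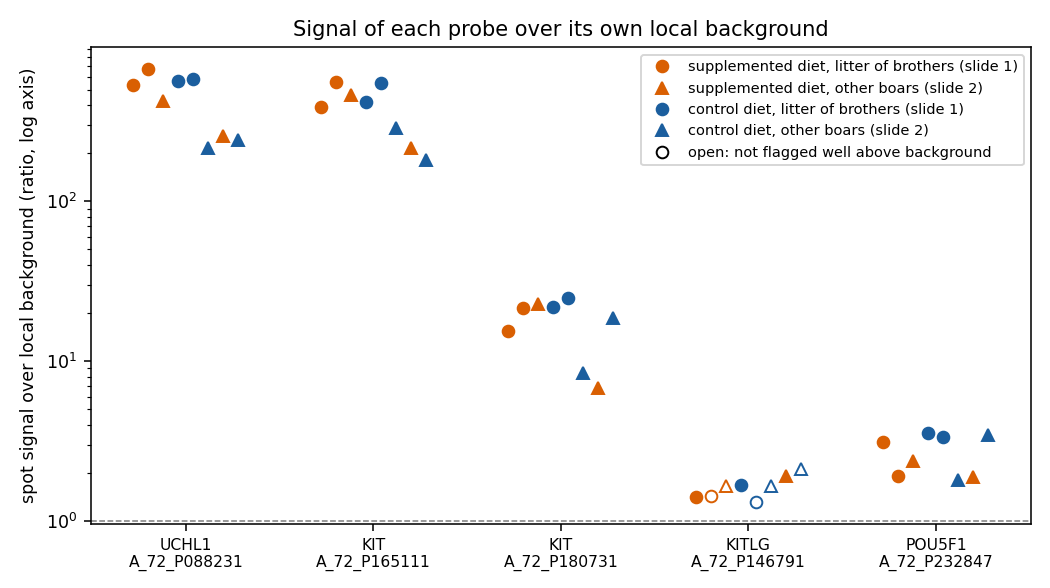
Spot signal divided by the local background of the same spot (vertical log axis, ratio) for each of the 5 probes and 8 boars, coloured by diet and shaped by litter and slide, with open symbols where the scanner did not flag the spot as well above background. UCHL1 and the KIT probe A_72_P165111 sat between 182 and 674 times their background, the KIT probe A_72_P180731 between 6.79 and 24.8 times, POU5F1 between 1.80 and 3.56 times and KITLG between 1.31 and 2.13 times.

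UCHL1 was read far above background in every testis. The raw signal of its probe A_72_P088231 (accession NM_213763) was 9373.5 in boar m_9597, 16854 in m_9599, 12844 in m_9499 and 5904.5 in m_9527 on the supplemented diet. On the control diet it was 12157.5 in boar m_9598, 13403 in m_9600, 7818 in m_9502 and 6519.5 in m_9528. After quantile normalization on the log2 scale the 4 supplemented boars had 13.47, 13.67, 13.48 and 13.10, and the control boars 13.11, 13.84, 13.21 and 12.41, in the same order. The highest boar (m_9600) and the lowest (m_9528) were both on the control diet, and the diets overlapped. The supplemented boars averaged 13.43 ± 0.24 (SD, n = 4) and the control boars 13.14 ± 0.58 (SD, n = 4). The log2 difference, supplemented minus control, was 0.29 (standard error 0.28, adjusted p = 0.840 from limma over all present probes). The 95% interval of limma ran from -0.33 to 0.91, so that from a 1.26-fold lower to a 1.88-fold higher signal on the supplemented diet was within it.

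The brighter KIT probe A_72_P165111 (accession NM_001044525) behaved much like UCHL1. Its raw signals were 10162, 13898, 11536.5 and 6034 in the supplemented boars m_9597, m_9599, m_9499 and m_9527, and 10123.5, 13734, 6589 and 5273.5 in the control boars m_9598, m_9600, m_9502 and m_9528. The normalized log2 values were 13.58, 13.40, 13.33 and 13.13 on the supplemented diet. On the control diet they were 12.84, 13.88, 12.98 and 12.11. The supplemented boars lay close together, with an SD of 0.19 around 13.36. The control boars spread from the lowest to the highest value of all 8, with an SD of 0.73 around 12.95. The log2 difference was 0.41 (standard error 0.32, adjusted p = 0.840 from limma), with a 95% interval from -0.31 to 1.13. The size of this difference depended on which control boar was left out. Without boar m_9600 it was 0.72, with a limma P-value under 0.05, as had 3.28% of all present probes without this boar, and without boar m_9528 it was 0.13. For UCHL1 these values were 0.52 and 0.05, both with a P-value above 0.05.

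The dimmer KIT probe A_72_P180731 carries the same accession, yet it ordered the boars differently. Its raw signals were 466, 612, 499 and 146 in the supplemented boars m_9597, m_9599, m_9499 and m_9527, and 634, 694, 176 and 429.5 in the control boars m_9598, m_9600, m_9502 and m_9528. Normalized, the supplemented boars had 9.07, 8.96, 8.80 and 7.63 and the control boars 8.84, 9.47, 7.81 and 8.54. The boars m_9527 and m_9502, one on each diet and both on slide 2, stood below the other 6. The supplemented boars averaged 8.62 ± 0.67 (SD, n = 4) and the control boars 8.67 ± 0.69 (SD, n = 4). The log2 difference was -0.05 (standard error 0.40, adjusted p = 0.978 from limma), with a 95% interval from -0.95 to 0.84, which is from 1.93-fold lower to 1.80-fold higher. Its sign depended on single boars, since it was 0.28 without boar m_9527 and -0.34 without boar m_9502. The normalized log2 value of A_72_P165111 minus that of A_72_P180731 ranged from 3.57 in boar m_9528 to 5.50 in boar m_9527. The KIT probes had the same highest boars, m_9600, m_9597 and m_9599 in this order, and differed in the lowest.

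KITLG, the ligand, was at the limit of detection. The raw signals of its probe A_72_P146791 (accession NM_214269) were 39.5, 40, 34 and 40 in the supplemented boars m_9597, m_9599, m_9499 and m_9527, and 43.5, 32, 36.5 and 51 in the control boars m_9598, m_9600, m_9502 and m_9528. The local background of the same spots was between 20.5 and 28. The normalized log2 values were 5.43, 5.25, 5.16 and 5.62 on the supplemented and 5.16, 5.13, 5.38 and 5.25 on the control diet, and the diets overlapped. The log2 difference was 0.14 (standard error 0.15, adjusted p = 0.844 from limma), with a 95% interval from -0.20 to 0.47. It was 0.05 without boar m_9527 and 0.21 without boar m_9499. Values this close to the background hold little of the transcript's own signal, and a difference understates the change of the RNA. A difference in KITLG RNA was not detectable at this brightness, which does not show that there was none.

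POU5F1 was dim but flagged well above background in all boars. The raw signals of its probe A_72_P232847 (accession NM_001113060) were 59, 60, 56.5 and 45 in the supplemented boars m_9597, m_9599, m_9499 and m_9527, and 96, 70, 44 and 91 in the control boars m_9598, m_9600, m_9502 and m_9528. The normalized log2 values were 6.02, 5.81, 5.77 and 5.81 on the supplemented and 6.24, 6.26, 5.67 and 6.19 on the control diet. Of the control boars 3 lay above every supplemented boar and the fourth, m_9502, below all of them. The means were 5.85 ± 0.11 (SD, n = 4) and 6.09 ± 0.28 (SD, n = 4). The log2 difference was -0.23 (standard error 0.17, adjusted p = 0.840 from limma), with a 95% interval from -0.61 to 0.15. Without boar m_9502 it was -0.37, with a limma P-value under 0.05, as had 16.6% of all present probes without this boar. It was -0.40, with a P-value above 0.05, when the scanner's background-subtracted signal was used and each array set to its own 75th percentile.

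POU5F1 was set beside a measure of array quality. The share of spots well above background was 76.3%, 79.6%, 76.5% and 77.1% on the arrays of the supplemented boars m_9597, m_9599, m_9499 and m_9527, and 86.5%, 82.6%, 77.3% and 82.7% on those of the control boars m_9598, m_9600, m_9502 and m_9528. Across the 8 boars its Pearson's r with POU5F1 was 0.803 (exact permutation p = 0.0239) and Spearman's rho was 0.619 (exact permutation p = 0.115). Of 10 such relations, those of the 5 probes with this share and with the median signal of the array, none had an adjusted p below 0.05, and the p of this r was 0.186 after adjustment. Leaving out the boars m_9598 and m_9528, whose arrays lay farthest from the median share, r was 0.670, and with the slide means taken out it was 0.756. The 4 boars of a slide were too few for a value of their own. The part of the array share in the POU5F1 difference was not tested. KITLG, near the background, had r = -0.731 with the median signal of the array (exact permutation p = 0.0372, adjusted p = 0.186). Without the boars m_9598 and m_9527, farthest from the median of that signal, this r was -0.508. UCHL1 and the KIT probe A_72_P165111 had r = -0.241 and -0.331 with the share of spots. With the slide means taken out these were -0.638 and -0.718, but without the boars m_9598 and m_9528 they were 0.751 and 0.653. With the median signal and the slide means taken out, r was -0.530 and -0.705. The part of the arrays in the likeness of UCHL1 and this KIT probe was not tested.

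**Figure D2:**
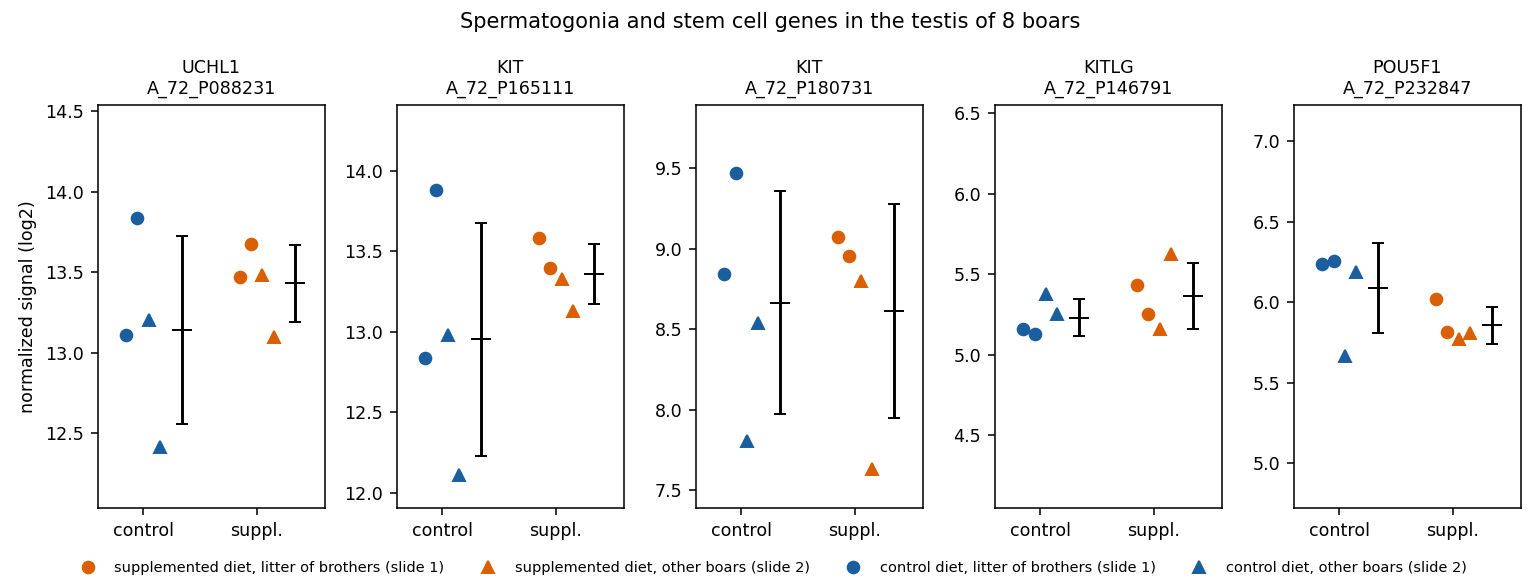
Quantile-normalized log2 signal (vertical axis) of the 5 probes in the 4 control and 4 supplemented boars, with the same span of log2 units in each panel. Points are boars, shaped by litter and slide, and the bars beside them are the mean ± SD of the diet. The diets overlapped in every panel, and the control boars spread more widely than the supplemented boars for UCHL1, the KIT probe A_72_P165111 and POU5F1.

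In the comparison of the diets, 0 of the 5 probes had a limma P-value under 0.05, against 1.86% of all present probes. Counted by direction this was 0 higher, against 0.938%, and 0 lower, against 0.925%. After adjustment 0 of all present probes were under 0.05. An ordinary equal-variance test without moderation also gave 0 of the 5, against 1.94% of all present probes. The diets overlapped in all 5 probes, whereas complete separation of the diets was seen in 1.13% of the present probes. The two-sided exact permutation test gave p = 0.429 for UCHL1, 0.343 and 0.914 for the KIT probes A_72_P165111 and A_72_P180731, 0.314 for KITLG and 0.143 for POU5F1, where the smallest p that 4 boars against 4 allow is 0.0286. In absolute size, 27.9% of the present probes differed more between the diets than UCHL1 and 14.9% more than the KIT probe A_72_P165111. For POU5F1 this share was 36.8%, for KITLG 58.1% and for A_72_P180731 83.2%. None of the 5 differences between the diets passed either test.

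The spread over single boars was as follows. UCHL1 spanned a 2.69-fold range over the 8 boars, and the KIT probes A_72_P165111 and A_72_P180731 spanned 3.41-fold and 3.58-fold. Their SD over all boars was 0.44, 0.54 and 0.63 on the log2 scale, beside a median of 0.30 over all present probes. Only 8.03% of the present probes had a larger SD than the KIT probe A_72_P180731, and 13.8% a larger one than A_72_P165111. KITLG (SD 0.17) and POU5F1 (SD 0.23) varied less than the median probe, and both are dim probes measured without background subtraction.

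Between the litter of brothers on slide 1 and the other boars on slide 2, with the diet as covariate, 1 of the 5 probes had a limma P-value under 0.05, against 8.11% of all present probes. This was the KIT probe A_72_P180731, at 9.09 ± 0.27 (SD, n = 4) in the brothers and 8.20 ± 0.56 (SD, n = 4) in the other boars. The log2 difference, brothers minus others, was 0.89 (standard error 0.29, adjusted p = 0.580 from limma). The lowest brother had 8.84 and the highest of the other boars 8.80, so the groups did not overlap, which was also so in 6.18% of all present probes. The other KIT probe was higher in the brothers by 0.54 (adjusted p = 0.646 from limma) and UCHL1 by 0.47 (adjusted p = 0.642 from limma). Both depended on single control boars, at 0.28 and 0.29 without boar m_9600 and at 0.31 and 0.28 without boar m_9528. POU5F1 differed by 0.22 and KITLG by -0.11. No probe on the array passed an adjusted P-value of 0.05 in this comparison. The diet difference itself was larger in the other 4 boars than in the brothers for UCHL1 (0.48 against 0.10) and for the KIT probe A_72_P165111 (0.68 against 0.13), but 0 of the 5 probes had a limma P-value under 0.05 for the interaction of diet and litter, against 2% of all present probes. The interaction was -0.38 (standard error 0.50) for UCHL1 and -0.55 (standard error 0.58) for this KIT probe.

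**Figure D3:**
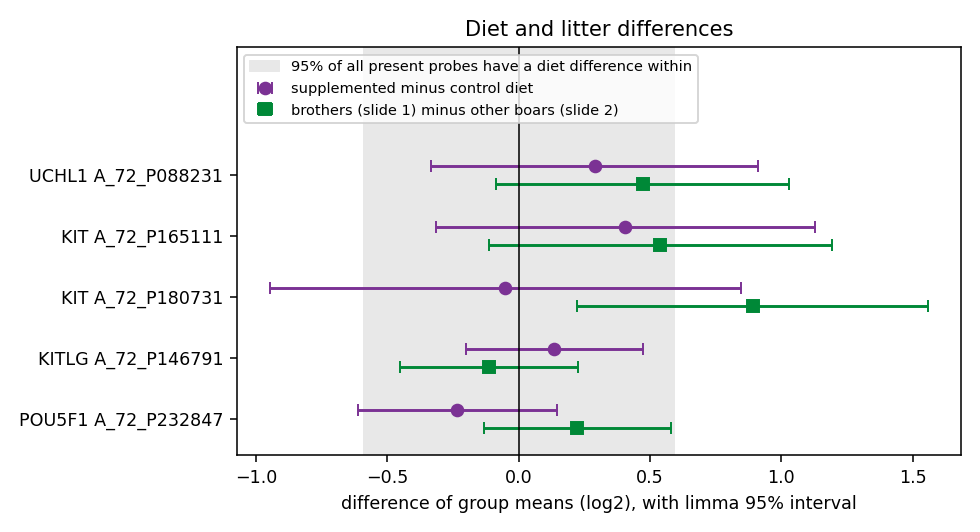
Differences of group means on the log2 scale (horizontal axis) with the 95% interval from limma, for supplemented minus control diet (circles) and brothers on slide 1 minus other boars on slide 2 (squares). The grey band, 0.59 to each side of 0, holds the diet differences of 95% of the present probes. All 5 diet intervals include 0, and of the litter intervals that of the KIT probe A_72_P180731, from 0.22 to 1.56, does not.

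UCHL1 and the KIT probe A_72_P165111 followed each other closely from boar to boar. Boar m_9600 was the highest and boar m_9528 the lowest in both. Pearson's r over the 8 boars was 0.961 (exact permutation p = 0.000794, adjusted p = 0.00794 over the 10 pairs of the 5 probes), and Spearman's rho was 0.857 (exact permutation p = 0.0107, adjusted p = 0.107). Leaving out the boars m_9528 and m_9600, which lay farthest from the median of UCHL1, r was 0.805 over the remaining 6. With any single boar left out it stayed between 0.894 and 0.975. With the slide means taken out r was 0.944, and the 4 boars of a slide were too few for a value of their own. Under the background-subtracted signal, the 75th percentile scaling, normexp and the deposited values r was between 0.946 and 0.962. None of the other 9 pairs had an adjusted p below 0.05. Both KIT probes gave r = 0.466 with each other (exact permutation p = 0.246) and rho = 0.714 (exact permutation p = 0.0576), while UCHL1 and A_72_P180731 gave r = 0.513 (exact permutation p = 0.199) and rho = 0.738 (exact permutation p = 0.0458, adjusted p = 0.192). KITLG, near the background, and the KIT probe A_72_P180731 had r = -0.724 (exact permutation p = 0.0441, adjusted p = 0.220). Without the boars m_9527 and m_9502 this r was -0.119.

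**Figure D4:**
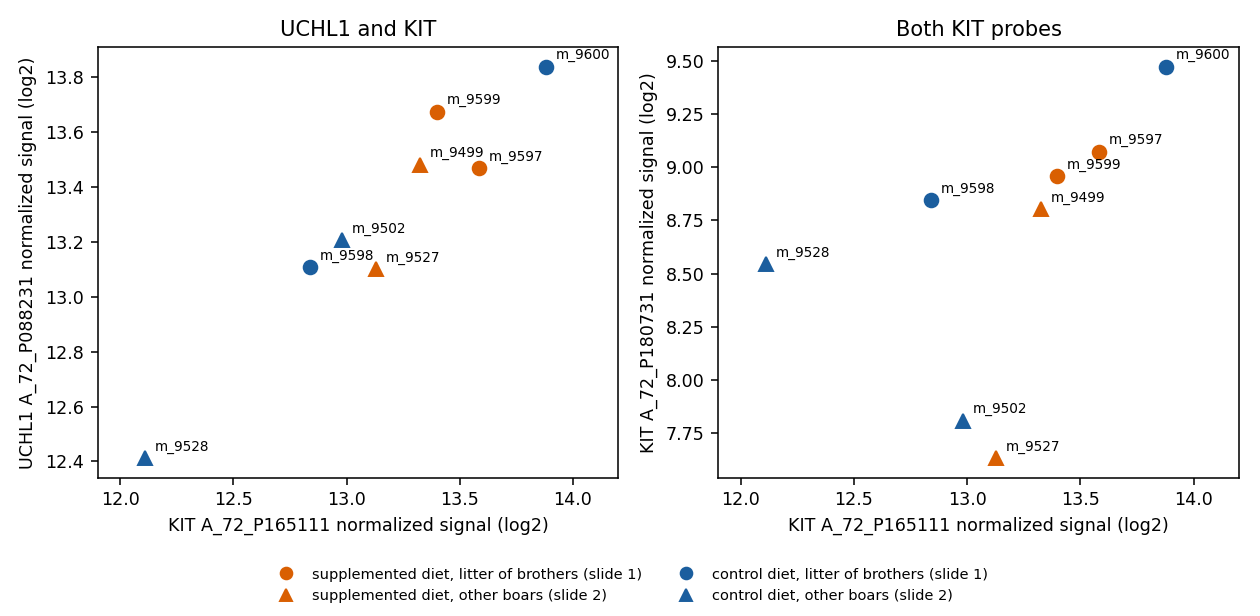
Normalized log2 signal of UCHL1 (left) and of the KIT probe A_72_P180731 (right) against the KIT probe A_72_P165111 (horizontal axes), with 1 labelled point per boar. On the left the 8 boars rise together (r = 0.961), and on the right the boars m_9502 and m_9527 fall below the others (r = 0.466).

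The likeness was also looked up over all probes with a gene name that were well above background on all 8 arrays, by Pearson's r over the 8 boars. Such a search over many probes always returns high values, and it is given as a description. Among 2602 candidate probes the KIT probe A_72_P165111 was the one most like UCHL1, followed by RACK1 (A_72_P394853, r = 0.948), a scaffold protein of the ribosome. USP18 (A_72_P077621, 0.937), which removes the ubiquitin-like ISG15, and PSME1 (A_72_P035626, 0.931), a subunit of the proteasome activator, came next, then ABCD4 (A_72_P019881, 0.927), a lysosomal transporter of vitamin B12. Among 2601 candidates UCHL1 was the one most like this KIT probe, the brighter of the pair and the only one searched, followed by MX1 (A_72_P302839, r = 0.955), an interferon-induced GTPase, RACK1 (0.944), MGAT2 (A_72_P126011, 0.941), an enzyme of N-glycan synthesis, and the heat shock gene HSP70.2 (A_72_P088236, 0.932). The median r of all candidates was -0.02 for UCHL1 and -0.05 for KIT. Most like POU5F1 were a pair of APP probes (A_72_P035811, 0.952, and A_72_P179616, 0.945), MYLK (A_72_P208932, 0.951), the kinase of myosin light chains, ACSL4 (A_72_P177931, 0.946) and the chemokine receptor CCR7 (A_72_P223792, 0.934). Most like KITLG were KLF3 (A_72_P419349, 0.922), FAM110B (A_72_P329688, 0.921), FABP6 (A_72_P115941, 0.910), OSCP1 (A_72_P291769, 0.909) and CDC20 (A_72_P428644, 0.907), but with KITLG near the background this order says little. All points share the same arrays and normalization.

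Genes around the members were compared between the diets by list. In the 5 lists of spermatogonial stem cells, differentiating spermatogonia, KIT signalling, pluripotency and the ubiquitin system, and in 9 lists of other testis cell types, 103 probes were present. None of them had a limma P-value under 0.05, where the whole array had 1.86%, and none passed after adjustment. The ordinary equal-variance test gave 4 of the 103, or 3.88%, against 1.94% of the whole array. Over all present probes the median log2 difference was -0.003.

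Of the spermatogonial stem cell list 6 probes of 3 genes were present. Their median log2 difference was -0.31, with 1 probe above and 5 below 0. The smallest P-value was that of FOXO1 (A_72_P299209), a transcription factor needed to maintain these cells, with -0.30 (adjusted p = 0.840 from limma). ITGB1, an integrin subunit of many cell types, was read by probes of opposite sign, A_72_P223772 with -0.69 and A_72_P195557 with 0.38. THY1 was not present. The list of differentiating spermatogonia had 7 present probes of 4 genes, 5 above and 2 below 0, with a median of 0.30. The smallest P-value was that of the CCND2 probe A_72_P035456, a D-type cyclin, with 0.58 (adjusted p = 0.840 from limma). The other CCND2 probe, A_72_P245637, had 0.02. The 3 probes of DNMT3A, a DNA methyltransferase, had 0.38, 0.30 and 0.36, and DMRT1 (A_72_P165721), a transcription factor of spermatogonia and Sertoli cells, had -0.32.

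KIT signalling had 19 present probes of 12 genes of the 34 listed, 8 above and 11 below 0, with a median of -0.09. GRB2 (A_72_P404893), the adaptor that binds the activated receptor, had -0.12. JAK2 (A_72_P232722) had -0.36 and MITF, a transcription factor downstream of KIT in pigment cells and mast cells, -0.18 and 0.28 in its probes A_72_P177906 and A_72_P404298. The pluripotency list had 11 present probes of 10 genes, 4 above and 7 below 0, with a median of -0.07. KLF2 (A_72_P044126) had the smallest P-value with 0.31, and both KLF4 probes lay at 0.06 and 0.02. SOX2, LIN28A, DPPA3 and PRDM14 had no named probe. The ubiquitin list had 7 present probes of 6 genes, 2 above and 5 below 0, with a median of -0.12. The hydrolases related to UCHL1 were UCHL3 (A_72_P177886) with -0.31 and UCHL5 (A_72_P199317) with -0.32. JUN (A_72_P178031) had 0.67 and the smallest P-value of this list (adjusted p = 0.840 from limma).

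**Figure D5:**
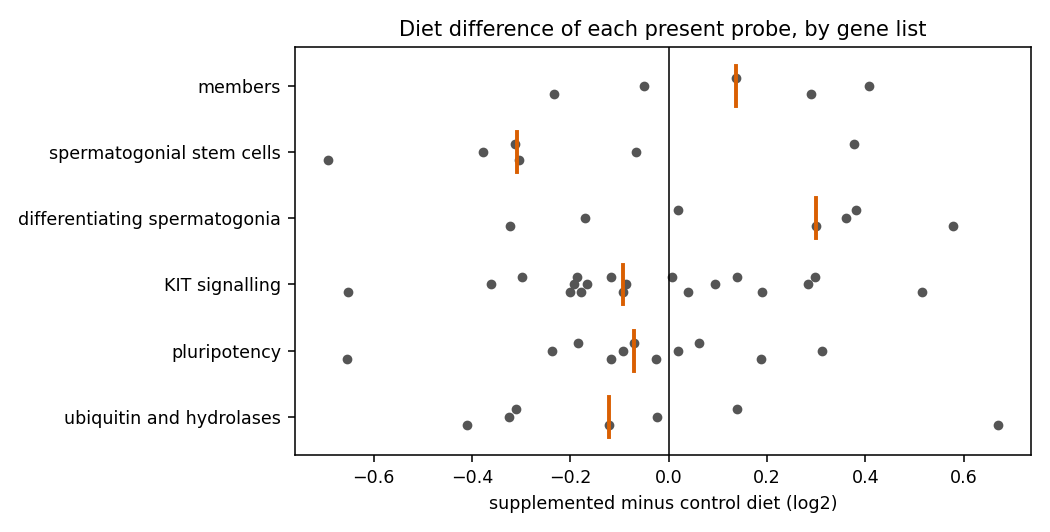
Difference between the diets on the log2 scale (horizontal axis, supplemented minus control) of each present probe of the members and of 5 related gene lists. Each point is a probe, spread vertically to keep points apart, and the orange bar is the list median, from -0.31 for spermatogonial stem cells to 0.30 for differentiating spermatogonia. No probe shown had a limma P-value under 0.05.

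In the lists of other cell types the signs leaned one way in some lists, without a probe under 0.05. The probes of a list were read in the same boars and partly from the same gene, so their signs are not independent counts. All 7 present macrophage probes (4 genes) lay above 0, with a median of 0.45, and C1QA, a chain of the first complement component, had the smallest P-value with 0.48. Of the 14 Leydig cell probes (8 genes) 13 lay below 0, with a median of -0.16, and the smallest P-value was that of the CYP11A1 probe A_72_P043786 with -0.35. CYP11A1 codes for the enzyme that cleaves the side chain of cholesterol. The Sertoli cell list (10 probes of 7 genes) had a median of -0.04 and its smallest P-value for transferrin, TF, with -0.31. Both spermatocyte probes lay below 0, PGK2 with -0.23, and the 5 spermatid probes had a median of 0.02, with ZPBP at -0.42. The 4 mast cell probes had a median of 0.09 (GATA2 0.26) and the 3 nerve probes one of -0.11 (STMN2 A_72_P004516 -0.30). The 4 endothelial probes had a median of -0.05 (PECAM1 A_72_P218027 0.72) and the 4 peritubular muscle probes one of 0.28 (DES A_72_P177466 0.36). The other PECAM1 probe, A_72_P077376, had -0.009, so the 2 probes of this gene did not go together. All these probes had an adjusted P-value above 0.05 from limma.

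Each of these cell types was followed from boar to boar by a list score, the mean over a list's present probes of the log2 value minus that probe's mean over the boars. The Leydig cell score, over 14 probes of 8 genes, ran from -0.76 to 0.78 on the supplemented and from -0.10 to 0.25 on the control diet. Boar m_9499 was highest and boar m_9527 lowest. The mast cell score (4 probes of 4 genes) ran from -0.07 to 0.26 and from -0.15 to 0.05, and the tryptase and chymase genes that define mast cells had no named probe. The Sertoli cell score (10 probes of 7 genes) ran from -0.20 to 0.10 on the supplemented and from -0.18 to 0.14 on the control diet. The macrophage score (7 probes of 4 genes) ran from -0.07 to 0.64 and from -0.51 to 0.63, so the diets overlapped in it. For nerve, of which UCHL1 is also a marker, only STMN2 had probes, with a score from -0.51 to 0.35 and from -0.13 to 0.21. Of 45 relations of the 5 probes with the 9 cell type scores across the boars, none had an adjusted permutation p below 0.05 and the smallest was 0.292. The smallest unadjusted p was that of KITLG, a probe near the background, with the Leydig score (r = -0.796, exact permutation p = 0.0174, adjusted p = 0.292). Without the boars m_9499 and m_9527, farthest from the median of that score, r was -0.551. UCHL1 had r = -0.04 with the Leydig score and the KIT probe A_72_P165111 had -0.14, and without the same boars these were -0.598 and -0.541. Spearman's rho of KITLG with the Leydig score was -0.623 (exact permutation p = 0.106). KITLG had r = 0.742 with the mast cell score (exact permutation p = 0.0379, adjusted p = 0.292), and 0.355 without the boars m_9527 and m_9528. POU5F1 had r = 0.722 with the Sertoli score (exact permutation p = 0.0470, adjusted p = 0.292), and 0.410 without the boars m_9499 and m_9502.

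The boars at the ends of the UCHL1 and A_72_P165111 range also stood at the ends of some other scores, but not they alone. Boar m_9527, ranked 7 in UCHL1 and 5 in A_72_P165111 from the highest, had the lowest Leydig (-0.76), nerve (-0.51) and spermatid (-0.27) scores. The same boar had the highest mast cell (0.26), macrophage (0.64) and peritubular muscle (0.34) scores. Boar m_9600, highest in UCHL1 and both KIT probes, had the highest endothelium score (0.39) of the 8 and a macrophage score of 0.63, second to boar m_9527 with 0.64. Boar m_9528, lowest in UCHL1 and A_72_P165111, had the lowest peritubular muscle score (-0.53) and the highest spermatocyte score (0.45, from the 2 genes PGK2 and SPO11). Its endothelium (-0.28), macrophage (-0.51) and mast cell (-0.15) scores were also the lowest, and its spermatid score (0.26) was the highest. The peritubular muscle score (4 probes of 2 genes) had r = 0.784 with A_72_P165111 (exact permutation p = 0.0178, adjusted p = 0.292) and 0.712 with UCHL1 (exact permutation p = 0.0442, adjusted p = 0.292). Leaving out the boars m_9528 and m_9598, farthest from the median of that score, the values were 0.248 and 0.082, so both relations rest on these boars. The endothelium score also had 4 probes of 2 genes. In these lists the probes CDH5 A_72_P310398 and DES A_72_P350098 were not well above background in every boar. The endothelium score had r = 0.712 with A_72_P165111 (exact permutation p = 0.0450, adjusted p = 0.292) and 0.753 without the boars m_9600 and m_9527. For UCHL1 the values were 0.594 and 0.722. The macrophage score had r = 0.693 with A_72_P165111 (exact permutation p = 0.0520, adjusted p = 0.292) and 0.825 without the same boars, and for UCHL1 0.563 and 0.793. The spermatocyte score had r = -0.764 with A_72_P165111 (exact permutation p = 0.0485, adjusted p = 0.292) and -0.444 without the boars m_9528 and m_9599. By Spearman's rho A_72_P165111 had 0.595 with the peritubular muscle score (exact permutation p = 0.132) and -0.500 with the spermatocyte score (exact permutation p = 0.216). With the endothelium score rho was 0.762 (exact permutation p = 0.0368, adjusted p = 0.827) and with the macrophage score 0.690 (exact permutation p = 0.0694). The part of the cell make-up of the samples in the UCHL1 and KIT values was not tested.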

How the data were processed

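RNA from 8 testes was hybridized to porcine Agilent arrays in a single colour. The authors deposited the scanner output of each array, whose spot intensity comes from Agilent Feature Extraction (version 10.5.1.1 per the file headers), without normalization across arrays. A deposited table of log2 values, which held 4 of the 5 member probes and had column medians of 8.18, was used as an alternative.

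From the non-control spots, log2 gMedianSignal, the raw value named in the methods, was quantile-normalized with no background correction, and replicate spots were averaged. Diets were compared with limma 3.58.1 in R 4.3.3 over all 36982 present probes, two-sided, with Benjamini-Hochberg adjustment and no block. The code was tested on simulated data. Names came from the RefSeq table of Sscrofa11.1, which matched 2628 of 3239 probes with a RefSeq accession, and from the study's list. Of the 43603 probes 3064 had a name, and lists and likeness searches cover only these. Every member probe is named, from each other list the probe of the smallest P-value, and per gene the 5 most alike probes. One list gene that this rule names is not reported here. Further list genes were named after their values were seen. Members and lists were chosen with earlier results of these data known. Alternatives changed the signal, normalization, filter, test, block and boars. The number of arrays limits the precision.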

Additional observations from a re-analysis of the deposited data

Results flagged for a closer look

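In 38 groups of 4 boars (the 5 probes and 14 list scores in each diet) a boar was looked up when its distance to the nearest other boar, divided by the range of its diet, exceeded the limit of Dixon's test at 95%. This was so in 5 groups, where chance gives about 1 in 20, or 1.9. POU5F1 was low in the control boar m_9502, at 5.67 against 6.19 to 6.26 in the other control boars (ratio 0.885). It was high in the supplemented boar m_9597, at 6.02 against 5.77 to 5.81 (ratio 0.834). The spermatocyte score, of 2 probes, was high in the control boar m_9528 (0.45, ratio 0.853) and in the supplemented boar m_9599 (0.08, ratio 0.927). The macrophage score was high in the control boar m_9600 (0.63, ratio 0.874), the boar with the highest UCHL1 and KIT values.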

How the results depend on the processing

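The limit of 25 on the background-subtracted signal and the litter comparison without the diet covariate were chosen after seeing the data. Member probes with a diet P-value under 0.05 numbered 0 under every alternative except limma with array weights, which gave 1 (POU5F1, -0.30). Leaving out single boars gave between 0 and 1, namely KIT A_72_P165111 without m_9600 and POU5F1 without m_9502. The exact test gave 0 to 1 likewise, the 1 again without m_9600. For only the brothers or only the other boars it compares 2 boars against 2 and cannot fall under 0.05. Of the gene lists 0 of 103 probes were under 0.05 in the limma fit described. In brackets is the percentage of all probes tested under the same alternative. There were 2 for the scanner's processed signal at the 75th percentile (2.76%), 2 for normexp (1.94%), 3 for all probes (1.92%), 4 for an ordinary equal-variance test (1.94%), 13 for array weights (15.8%), 13 for only the brothers (6.44%) and 4 for only the other boars (0.971%). Over single boars left out they numbered 0 to 14, with 14 without m_9502 (16.6%), 8 without m_9499 (2.03%), 6 without m_9600 (3.28%) and 1 without m_9527 (1.18%). The cause was not tested. The diet difference of KIT A_72_P180731 turned to 0.048 under array weights and 0.041 for only the other boars. It spanned -0.34 to 0.28 over single boars left out, being above 0 without m_9598 (0.0084), m_9600 (0.22) and m_9527 (0.28). The other 4 probes kept their sign under all alternatives run. Member probes under 0.05 between brothers and other boars numbered 1 under all 14 alternatives, and for the interaction 0 under all 12. The share of all probes was not computed for these alternatives. In the fits described it was 8.11% between brothers and other boars and 2% for the interaction. With the litter of brothers, that is the slide, as a block, 0 member probes were under 0.05. Boars were not paired one to one, since their numbers in the labels are not shared between diets. The paper's allotment within litter could be followed only for the brothers, because the litters of the other boars are not stated. KITLG has no value in the deposited log2 table or under the stricter presence filters, which leave it out. Signal over background limits what can be said of KITLG and POU5F1.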
